A study of Mus musculus with 8 samples.

Results

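Transcripts of 10 genes that encode the KMT2 and SETD1 histone methyltransferases and their complex-specific partners were measured in postnatal mouse neural stem and progenitor cells (NSPCs) in which the shared subunit gene Ash2l had been targeted. The 10 were chosen by name as Kmt2a, Kmt2b, Kmt2c, Kmt2d, Setd1a, Setd1b, Men1, Cxxc1, Kdm6a and Ncoa6, and each symbol matched 1 of the 55385 gene IDs. All 10 passed the filter on low values, which asked for 1 TPM or more in at least 4 libraries. TPM is a transcript abundance corrected for length and expressed as a share of its library. Each reached 1 TPM in all 8 libraries, so no member passed only through the group in which it was higher.

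KMT2 and SETD1 enzymes place methyl groups on lysine 4 of histone H3 (H3K4), a mark of active promoters and enhancers. Each works on a common core of WDR5, RBBP5, ASH2L and DPY30, which raises the activity of the catalytic SET domain, and each complex is distinguished by its own partners. SETD1A and SETD1B are the main sources of promoter trimethylation, KMT2A and KMT2B act at selected promoters such as those of developmental genes, and KMT2C and KMT2D monomethylate enhancers. In neural stem cells of the postnatal mouse, KMT2A is known for its role in neurogenesis.

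Libraries came from NSPCs that had been sorted by flow cytometry from the cortex on postnatal day 7. The iKO mice carried Nestin-CreERT2, a tamoxifen-inducible Cre recombinase driven by the Nestin promoter, together with the floxed allele Ash2lf/f and the tdTomato reporter. The WT mice carried Nestin-CreERT2 and tdTomato without the floxed allele, so Cre and reporter were common to both groups. There were 4 iKO and 4 WT libraries. The submitters call them biological replicates but do not say how many animals each came from. Every library held both Xist and Y-linked transcripts (values below), so each probably mixed cells of female and male animals. The p-values measure the spread between libraries only.

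TPM keeps no record of sequencing depth, which is therefore unknown. Libraries held 16089 to 16616 genes at 1 TPM or more. Pairs of libraries correlated at 0.9871 to 0.9897 within a group and at 0.9623 to 0.9645 across groups (log2(TPM + 1) over genes, which are not independent replicates). The 13 stem and progenitor markers were all above the filter, with Slc1a3 at 1241 TPM in iKO and 2039 in WT, Fabp7 at 925 TPM in iKO and 664 in WT, Pax6 at 54.6 TPM and 55.4 TPM, and Sox2 at 7.48 TPM and 7.14 TPM. Markers of other cell types were present too. Their summed TPM was 3143 to 3309 in iKO and 4492 to 4624 in WT for 8 astrocyte genes, 842 to 895 in iKO and 476 to 489 in WT for 8 endothelial genes, 537 to 554 in iKO and 647 to 696 in WT for 8 microglia genes, and 719.7 to 839.6 in iKO and 69.7 to 80.9 in WT for 5 red blood cell genes. By the test described below, all 8 endothelial and all 5 red blood cell genes were higher in iKO. Genes of the other lists did not all move together: 6 astrocyte genes were lower and 1 higher, and so were 6 and 1 microglia genes. Agt alone stood at 62.8 TPM in iKO and 726 in WT. Of 8 neuroblast genes 4 were higher and 3 lower, and of 7 tested oligodendrocyte lineage genes 3 were higher and 3 lower. The same test called 52.6% of all tested genes. None of these markers was listed at 0 in any library, and the part of these cells in the results below was not tested.

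Several KMT2 complexes reach promoters through zinc finger domains of the CXXC type, carried by KMT2A, KMT2B and CXXC1, which bind unmethylated CG dinucleotides. The start regions of Kdm6a and Kmt2a are shown to let the CG content of a member that was higher in iKO be read beside that of a member that did not pass the test. The sequences are from RefSeq on GRCm38.p6, from 250 bases before to 50 bases after the start, in the direction of transcription, with every CG in capitals.
Kdm6a, chrX:18162325-18162624, plus strand: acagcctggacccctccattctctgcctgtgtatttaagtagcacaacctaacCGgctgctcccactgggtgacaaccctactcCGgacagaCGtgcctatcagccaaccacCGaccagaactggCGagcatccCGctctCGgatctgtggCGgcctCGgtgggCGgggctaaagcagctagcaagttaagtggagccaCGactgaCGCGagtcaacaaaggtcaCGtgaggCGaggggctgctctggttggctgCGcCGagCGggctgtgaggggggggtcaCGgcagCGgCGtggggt
Kmt2a, chr9:44881240-44881539, minus strand: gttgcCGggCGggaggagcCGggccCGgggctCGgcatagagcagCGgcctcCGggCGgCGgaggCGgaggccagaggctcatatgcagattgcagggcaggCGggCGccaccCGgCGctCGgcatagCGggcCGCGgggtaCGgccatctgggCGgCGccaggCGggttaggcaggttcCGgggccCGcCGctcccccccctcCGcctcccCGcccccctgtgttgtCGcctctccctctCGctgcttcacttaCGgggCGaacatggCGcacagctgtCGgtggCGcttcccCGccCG

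The Kdm6a window held 21 CG and the Kmt2a window 36 CG. CG reads the same on both strands and cannot overlap itself. Across the 32851 windows of this length in the RefSeq table, the median was 7 CG and 94.6% held at least 1. The table matched 7 of the 10 members. Kmt2c had 56 CG, more than 99.8% of all windows, Setd1a had 35 and Kmt2d 27. Men1 had 11 to 16 CG in its 3 windows. The Ncoa6 window had 1 CG. These counts describe the windows only.

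Levels of the 10 genes spanned more than an order of magnitude. Men1, the gene of menin, which tethers KMT2A and KMT2B to chromatin, was the most abundant at 67.8 ± 5.06 TPM in iKO and 73.7 ± 7.78 in WT (SD, n = 4). It lay above 83.3% of the 16413 tested genes by mean log2(TPM + 1). Cxxc1, the CG-binding subunit of the SETD1 complexes, followed at 29.2 ± 1.42 TPM in iKO and 30.4 ± 2.18 in WT, and Kmt2c at 27.4 ± 1.52 TPM in iKO and 27.2 ± 0.426 in WT. Ranges of these neighbours overlapped in iKO and were apart in WT. Next came Kdm6a, Kmt2a, Ncoa6 and Kmt2b, in the same order in both groups. The ranges of Kmt2a and Ncoa6 overlapped in iKO, and those of Ncoa6 and Kmt2b overlapped in WT.

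The 3 least abundant members were Setd1a, Setd1b and Kmt2d. In iKO they stood at 4.94, 5.08 and 4.16 TPM, with overlapping ranges for each pair of neighbours in that order, and Setd1b was first among them. In WT they stood at 5.12, 3.88 and 4.28 TPM, again with overlap between neighbours, and Setd1b was last among all 10. Kmt2d, whose longest annotated transcript has 19823 nt, lay above only 26.6% of tested genes, although its mean normalized signal in the authors' deposited table was 688, above the 601 of Kdm6a. Levels per length and read signal are different quantities for genes whose transcripts range from 2620 nt (Cxxc1) to 19823 nt.

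**Figure D1:**
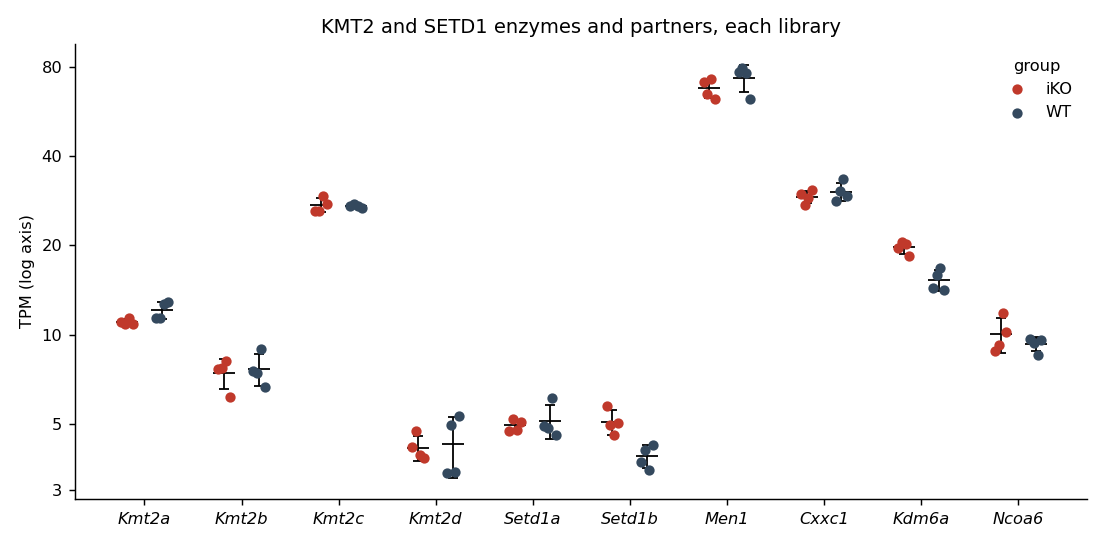
TPM (log axis) of the 10 members in each of 4 iKO libraries (red, left) and 4 WT libraries (dark, right), with the mean and SD in black. Kdm6a and Setd1b are the members whose iKO points all lie above their WT points, at 18.4 to 20.6 TPM against 14.1 to 16.8 TPM and at 4.58 to 5.76 TPM against 3.49 to 4.25 TPM.

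In TPM, a share of each library with no further scaling, the 6 enzymes together held nearly the same amount in both groups. Their summed TPM was 60.1 ± 1.57 in iKO and 60.2 ± 1.51 in WT (SD, n = 4). Kmt2c alone made up 45.6% ± 1.89 of this sum in iKO and 45.2% ± 1.39 in WT. Kmt2a made up 18.4% ± 0.115 in iKO and 20.1% ± 1.08 in WT, and Kmt2b 12.3% ± 1.23 in iKO and 12.7% ± 1.46 in WT. Setd1b took up 7.35% to 9.66% of it in iKO libraries, against 5.65% to 7.04% in WT libraries. The ranges of the Setd1b share and of the Kmt2a share, 18.3% to 18.5% in iKO against 18.8% to 21.3% in WT, did not overlap, in opposite directions. Shares of a sum depend on each other, and Kmt2a itself overlapped between the groups in TPM. For 49.2% of tested genes the TPM values of the groups did not overlap.

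Setting iKO against WT addresses how transcript levels change once Ash2l has been targeted. Ash2l itself averaged 7.13 ± 0.714 TPM in iKO and 17.6 ± 1.33 in WT (SD, n = 4), and all 4 iKO libraries lay below all 4 WT libraries. Of the 10 members, 2 rose in iKO (Kdm6a and Setd1b), none fell and 8 did not pass the test at an adjusted p of under 0.05 (limma on log2(TPM + 1), Benjamini-Hochberg over all tested genes). Across all tested genes the same rule called 52.6%, with 20.7% higher and 31.9% lower in iKO. The share of members called, 20%, was thus below that of all genes, and the share called higher was close to it; these shares were not tested against each other. The median log2 fold change of the 10 was -0.03, beside -0.06 over all tested genes. In bulk samples, a change in the number of cells of a type and a change in RNA per cell cannot be told apart.

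With trimmed mean factors, under which 49.5% of called genes were higher, against 39.3% without scaling and 51.8% of genes were called, Kdm6a and Setd1b were again the members called and the median of the 10 was 0.02. After removal of a trend with transcript length and GC content, 3 members were higher and none lower, since Kmt2c joined them (51.2% of genes called). The authors' deposited table called 4 members, all higher in iKO, by adding Kmt2c and Kmt2d. That table called 33.9% of its 29438 genes, 17.1% as higher, and 53.9% of the genes tested here. With a score of sex-linked transcripts as covariate none of the 10 was called by limma, and 2.58% of genes were. This score did not overlap between the groups, so for no gene can the fit tell sex composition from genotype.

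**Figure D2:**
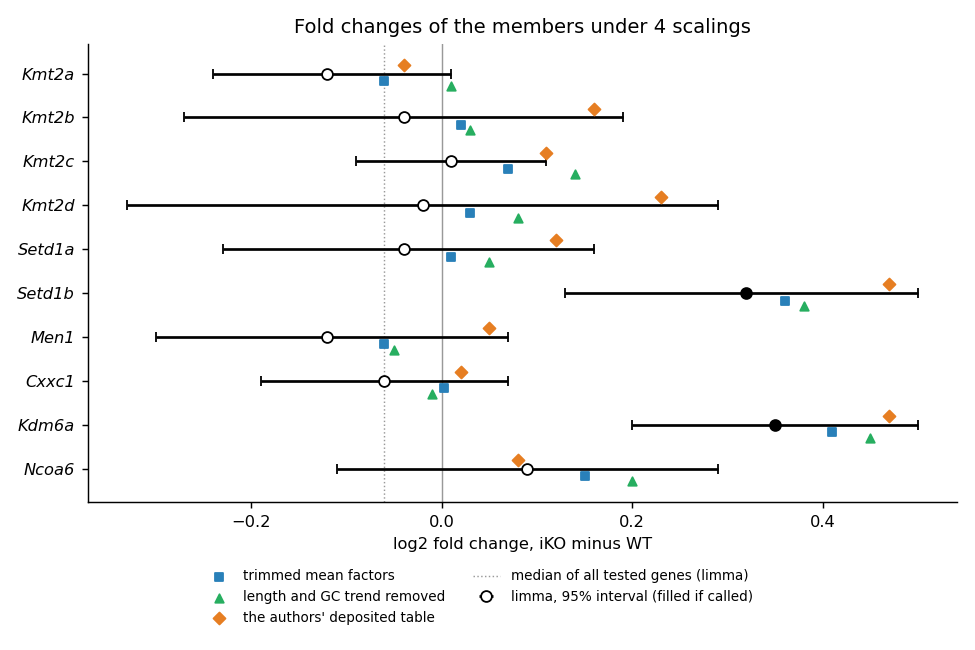
Log2 fold change of each member, iKO minus WT. Circles with bars show limma estimates on log2(TPM + 1) with 95% intervals, filled for Setd1b and Kdm6a, which passed the test; squares, triangles and diamonds show trimmed mean factors, removal of a length and GC trend, and the authors' deposited table. The dotted line marks the median of all tested genes, -0.06.

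Among the SETD1 enzymes, Setd1b encodes the catalytic subunit of a SETD1 complex separate from that of SETD1A. It had 5.76, 4.96, 4.58 and 5.03 TPM in the iKO libraries, against 3.72, 4.07, 3.49 and 4.25 TPM in the WT libraries. Every iKO library lay above every WT library, as was the case in one direction or the other for 49.2% of tested genes. Setd1b rose by a log2 fold change of 0.32 (SE 0.0834, 95% interval 0.13 to 0.50, adjusted p = 0.0116). Without any 1 library its fold change was 0.26 to 0.36 and it was still called. With 5 TPM added before the logarithm in place of 1 TPM the fold change was 0.18 and was called. The authors' deposited table gave Setd1b a log2 fold change of 0.47 (adjusted p = 2.78e-09). With the score of sex-linked transcripts as covariate its fold change was 0.55 and its call was lost (adjusted p = 0.444). As the score did not overlap between the groups, the loss of this call does not tell sex composition from genotype.

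Setd1a, the closest relative of Setd1b, had 4.72, 5.20, 4.78 and 5.06 TPM in iKO, against 4.92, 4.83, 6.12 and 4.60 TPM in WT. The groups overlapped, and the highest value was WT replicate 3. Its log2 fold change of -0.04 did not pass (95% interval -0.23 to 0.16, adjusted p = 0.74). Setd1a shares 3523 nt of exon with the annotated gene Gm49388, listed at 0 TPM in iKO and at 0.121 TPM in WT, so reads could be split between both and its level is uncertain to that extent. The Kmt2d transcript has a near-identical partial copy, Gm47184, listed at 0 in both groups. Cxxc1 had 29.8, 27.4, 28.8 and 30.7 TPM in iKO, against 28.3, 30.5, 33.4 and 29.4 TPM in WT. Its groups overlapped, and its fold change of -0.06 did not pass (95% interval -0.19 to 0.07, adjusted p = 0.44).

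Of the menin-bound enzymes, Kmt2a had 11.0, 10.9, 11.4 and 10.9 TPM in iKO, against 11.4, 11.4, 12.7 and 12.9 TPM in WT. The iKO libraries lay at or below the low end of the WT range, which iKO replicate 3 reached. The log2 fold change of -0.12 did not pass (95% interval -0.24 to 0.01, adjusted p = 0.111), and under removal of the length and GC trend it was 0.01. Kmt2b had 7.68, 7.70, 8.13 and 6.15 TPM in iKO, against 7.55, 7.41, 8.97 and 6.66 TPM in WT. The groups overlapped throughout (log2 fold change -0.04, 95% interval -0.27 to 0.19, adjusted p = 0.777).

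Menin binds the amino terminus of both of these enzymes. Men1 had 71.0, 65.1, 73.1 and 62.2 TPM in iKO, against 76.9, 79.2, 76.6 and 62.2 TPM in WT. Of the WT libraries, 3 lay above all iKO libraries, and WT replicate 4 lay at the level of the lowest iKO library. The log2 fold change of -0.12 did not pass (95% interval -0.30 to 0.07, adjusted p = 0.27). Without WT replicate 4 it was -0.19 and passed (adjusted p = 0.0244), so this 1 library decides the call. The authors' deposited table gave Men1 a log2 fold change of 0.05 (adjusted p = 0.221).

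Of the enhancer enzymes, Kmt2c had 26.2, 26.2, 29.4 and 27.7 TPM in iKO, against 27.2, 27.7, 27.1 and 26.7 TPM in WT, and the WT range lay inside the iKO range. It had the narrowest interval of the 10, with a log2 fold change of 0.01 (95% interval -0.09 to 0.11, adjusted p = 0.85). Under removal of the length and GC trend it passed at 0.14 (adjusted p = 0.0308), and the authors' deposited table called it higher at 0.11 (adjusted p = 0.00024). An antisense transcript, Gm42585, overlaps 274 nt of its exons and stood at 1.2 TPM in iKO and 1.1 in WT.

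Kmt2d had 4.16, 4.72, 3.93 and 3.82 TPM in iKO, against 3.40, 4.95, 3.44 and 5.33 TPM in WT. The WT libraries fell into a low pair, replicates 1 and 3, and a high pair, replicates 2 and 4, and all 4 iKO libraries lay between these pairs. The coefficient of variation in WT, 23.5%, was the widest of the 10 members, beside 9.66% in iKO. The log2 fold change of -0.02 did not pass (95% interval -0.33 to 0.29, adjusted p = 0.921). The authors' deposited table, in contrast, called Kmt2d higher at 0.23 (adjusted p = 2.80e-05). The same table gave 0.16 for Kmt2b and 0.12 for Setd1a, neither of them called, where the TPM values gave -0.04 for each.

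Among partners of these enhancer enzymes, Kdm6a encodes UTX, a histone H3 lysine 27 demethylase and a subunit of both complexes. It had 19.6, 20.6, 20.2 and 18.4 TPM in iKO, against 14.4, 15.9, 16.8 and 14.1 TPM in WT. Every iKO library lay above every WT library. Kdm6a rose by a log2 fold change of 0.35 (SE 0.0647, 95% interval 0.20 to 0.50, adjusted p = 0.00184), to 1.29 times its WT mean. Without any 1 library the fold change was 0.31 to 0.39, with an adjusted p of at most 0.00678, and the authors' deposited table gave 0.47 (adjusted p = 1.08e-16).

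Ncoa6, a nuclear receptor coactivator gene whose product is a subunit of the same complexes, had 8.83, 9.23, 11.8 and 10.2 TPM in iKO, against 9.69, 9.36, 8.55 and 9.57 TPM in WT. The groups overlapped, and the highest value was iKO replicate 3. Its fold change of 0.09 did not pass (95% interval -0.11 to 0.29, adjusted p = 0.40) and was 0.02 without iKO replicate 3. Over the 8 members that did not pass, the 95% intervals of the fit without a covariate reached from -0.33 to 0.29 on the log2(TPM + 1) scale. Larger differences in either direction lay outside every one of these intervals.

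Kdm6a is X-linked and is one of the genes that escape X inactivation, and the groups differed in sex-linked transcripts. Uty, its homologue on the Y chromosome, had 5.27, 4.34, 5.35 and 8.42 TPM in iKO, against 13.2, 20.4, 17.4 and 15.9 TPM in WT (log2 fold change -1.39, adjusted p = 0.000239). All 4 Y-linked transcripts of the list fell and Xist, the transcript of the inactive X chromosome, rose to 19.8 ± 0.577 TPM in iKO, against 16.4 ± 0.7 TPM in WT (SD, n = 4, log2 fold change 0.26, adjusted p = 0.00141). Every library held both Xist (18.9 to 20.1 TPM in iKO, 15.4 to 16.9 in WT) and the Y-linked Ddx3y (22.5 to 24.8 TPM in iKO, 49.5 to 56.8 in WT). Female and male cells were thus probably mixed in each library, and their proportions are not given. Kdm5c, another X-linked gene that escapes inactivation, stood at 21.8 ± 1.97 TPM in iKO and 20.4 ± 1.87 in WT and did not pass (log2 fold change 0.09, adjusted p = 0.365). With the score of sex-linked transcripts as covariate, the fold change of Kdm6a was 0.17 and its call was lost (adjusted p = 0.794). The score was -0.824 to -0.262 in iKO libraries, against 0.565 to 1.01 in WT libraries, without overlap. The fit therefore cannot tell sex composition from genotype for Kdm6a or for any other gene.

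Kdm6b, the autosomal member of the same demethylase family, rose as well. It had 18.1, 19.0, 17.6 and 18.3 TPM in iKO, against 13.9, 15.0, 13.9 and 13.7 TPM in WT (log2 fold change 0.35, adjusted p = 0.000236), and each iKO library lay above each WT library. Its call was likewise lost with the score of sex-linked transcripts as covariate (0.32, adjusted p = 0.427). The transcripts of Kdm6a and Uty align over 3863 nt at 81.8% identity, below the 95% set here for near-identical copies.

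**Figure D3:**
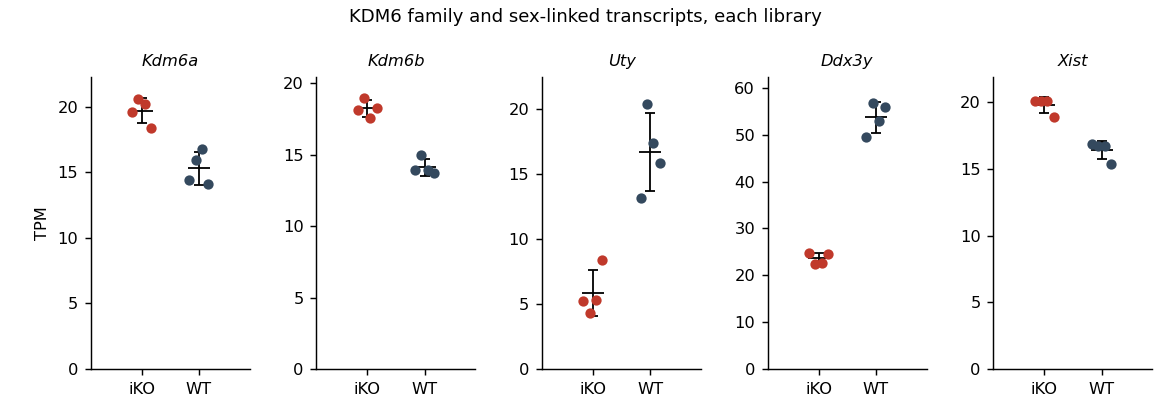
TPM of Kdm6a, Kdm6b, Uty, Ddx3y and Xist in each of 4 iKO libraries (red, left) and 4 WT libraries (dark, right), with the mean and SD in black; each axis starts at 0. Kdm6a, Kdm6b and Xist are higher and the Y-linked Uty and Ddx3y lower in iKO, without overlap.

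Ratios of paired genes within a library do not depend on how the library was scaled. For 4 pairs the log2 ratio was compared by exact permutation (two-sided, 70 ways to assign the libraries), which cannot give a p below 0.0286. The Setd1a:Setd1b ratio was 0.98 ± 0.108 in iKO and 1.34 ± 0.295 in WT (SD, n = 4), a log2 difference of -0.43 without overlap (exact permutation p = 0.0286, 0.0571 adjusted over the 4 pairs). Setd1a exceeded Setd1b in all 4 WT libraries and in 3 of 4 iKO libraries by no more than 1.05 times. The Kdm6a:Uty ratio was 3.61 ± 1.05 in iKO and 0.93 ± 0.133 in WT, a log2 difference of 1.91 with no overlap (exact permutation p = 0.0286, adjusted 0.0571). Neither passed after adjustment, and with the smallest p in 2 of 4 pairs neither could.

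The other pairs overlapped. Kmt2a:Kmt2b was 1.51 ± 0.174 in iKO and 1.60 ± 0.227 in WT (log2 difference -0.08, exact permutation p = 0.514, adjusted 0.686). Kmt2c:Kmt2d was 6.66 ± 0.89 in iKO and 6.61 ± 1.54 in WT (log2 difference 0.03, exact permutation p = 0.886, adjusted 0.886).

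**Figure D4:**
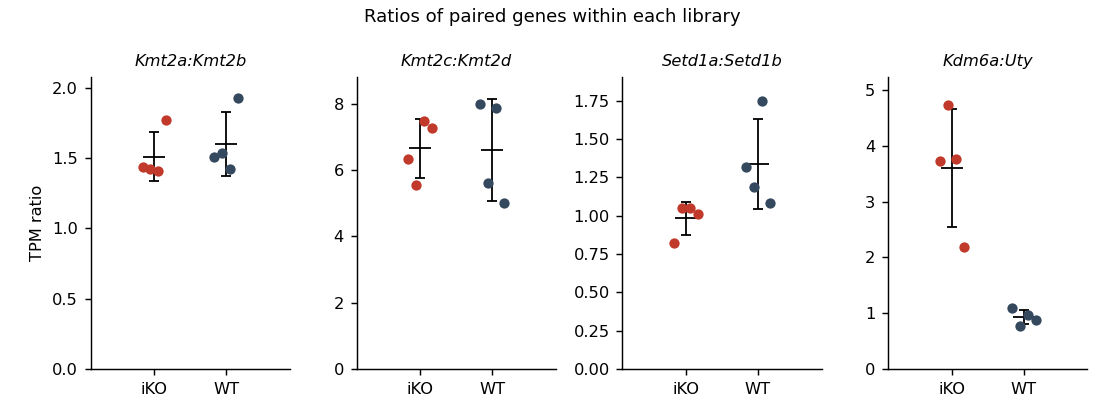
Ratio of TPM between paired genes within each of 4 iKO libraries (red, left) and 4 WT libraries (dark, right), with the mean and SD in black; each axis starts at 0. The groups are apart for Setd1a:Setd1b (0.82 to 1.05 in iKO, 1.08 to 1.75 in WT) and Kdm6a:Uty, and overlap for the pairs of KMT2 enzymes.

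Subunits outside the 10 formed a list of 12 genes, all tested and with Ash2l among them. In iKO 3 were higher, 3 lower (Ash2l, Wdr82 and Hcfc1) and 6 without a call. The share called, 50%, was close to the 52.6% of all tested genes, and the median fold change on the log2 scale was 0.08. Dpy30, a core subunit gene, rose to 140.4 ± 8.64 TPM in iKO, against 92.5 ± 7.09 TPM in WT (log2 fold change 0.60, adjusted p = 6.02e-05). Psip1, whose product joins menin to chromatin, rose by 0.18. Wdr82, a subunit specific to the SETD1 complexes, fell to 35.2 ± 1.65 TPM in iKO, against 44.9 ± 1.23 TPM in WT (log2 fold change -0.34, adjusted p = 0.000147), with -0.18 in the authors' deposited table. Hcfc1, a host cell factor gene, fell by 0.22, a call lost under removal of the length and GC trend (-0.11, adjusted p = 0.0917). Hcfc2 was called higher at 0.44 although its groups overlapped, and the authors' deposited table gave it -0.01 (adjusted p = 0.862).

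The core genes Wdr5 (38.0 and 36.6 TPM in iKO and WT) and Rbbp5 (49.4 and 48.6 TPM) did not pass. Neither did Paxip1 (8.53 and 8.92 TPM) and Pagr1a (32.9 and 25 TPM), which belong to the KMT2C and KMT2D complexes. Tasp1, the protease gene that matures KMT2A and KMT2B, stood at 19.2 and 17.5 TPM and Bod1l, a partner of SETD1A, at 17.7 and 16.8 TPM, without passing. With trimmed mean factors Wdr5 and Tasp1 were called higher (limma adjusted p = 0.035 for Wdr5 and 0.0133 for Tasp1). The authors' deposited table called Wdr5 (0.15, adjusted p = 0.00199), Rbbp5 (0.10, adjusted p = 0.0131) and Tasp1 (0.17, adjusted p = 0.0384) higher.

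Enzymes that act on the same lysine outside these complexes were also read from the fit. Of 5 tested SET-domain genes linked to H3K4, 2 fell and none rose, where 31.9% of all tested genes were called lower and 20.7% higher. Kmt2e, which despite its name encodes a protein regarded as lacking methyltransferase activity, stood at 180.2 ± 2.94 TPM in iKO and 209 ± 5.13 in WT (SD, n = 4, log2 fold change -0.21, adjusted p = 7.05e-05), a fold change that was -0.10 with the length and GC trend removed. Setd7, a lysine methyltransferase gene, fell to 7.20 ± 0.835 TPM in iKO, against 10.6 ± 1.92 TPM in WT (log2 fold change -0.49, adjusted p = 0.00818). The authors' deposited table gave Setd7 -0.18 and did not call it (adjusted p = 0.0583). Smyd2, Smyd3 and Prdm9 did not pass. Smyd1 was below the filter with 0.56 to 1.85 TPM across iKO libraries and 0.273 to 0.475 TPM across WT libraries, and its highest value was iKO replicate 1. Its groups did not overlap (exact permutation p = 0.0286, the smallest possible, not adjusted). The authors' deposited table called Smyd1 higher at 0.93 (adjusted p = 0.0265).

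Among 6 genes of H3K4 demethylases, only the Y-linked Kdm5d was called, at 7.93 ± 1.08 TPM in iKO and 13.0 ± 2.17 in WT (log2 fold change -0.64, adjusted p = 0.00325). The share of this list called was 16.7%, beside 52.6% of all tested genes, and these shares were not tested against each other. Kdm1a, Kdm1b, Kdm5a, Kdm5b and Kdm5c had fold changes of -0.15 to 0.11 and did not pass in TPM. The authors' deposited table called 3 of the 6 higher, Kdm1a, Kdm5b and Kdm5c, and 1 lower, Kdm5d. It called 53.9% of the genes tested here in either direction. Its share called higher, 17.1%, is over all 29438 of its genes, a wider set with genes below the filter.

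Genes of proteins that read methylated H3K4 changed in both directions: 3 of 13 rose and 4 fell. Dido1 fell to 19.4 ± 0.744 TPM in iKO, against 28.8 ± 1.05 TPM in WT (log2 fold change -0.54, adjusted p = 1.21e-05), with -0.34 in the authors' deposited table, and Bptf, a subunit of the NURF remodeller, fell by 0.33. Spin1 rose by 0.25 and Ing4, a subunit of an acetyltransferase complex, by 0.16 on the log2(TPM + 1) scale, or 0.28 in the authors' deposited table. The share of this list that was called, 53.8%, was close to the 52.6% of all tested genes. With the score of sex-linked transcripts as covariate, no gene of the subunit, SET-domain, demethylase and reader lists that limma had called, Ash2l included (adjusted p = 0.142), kept its call.

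**Figure D5:**
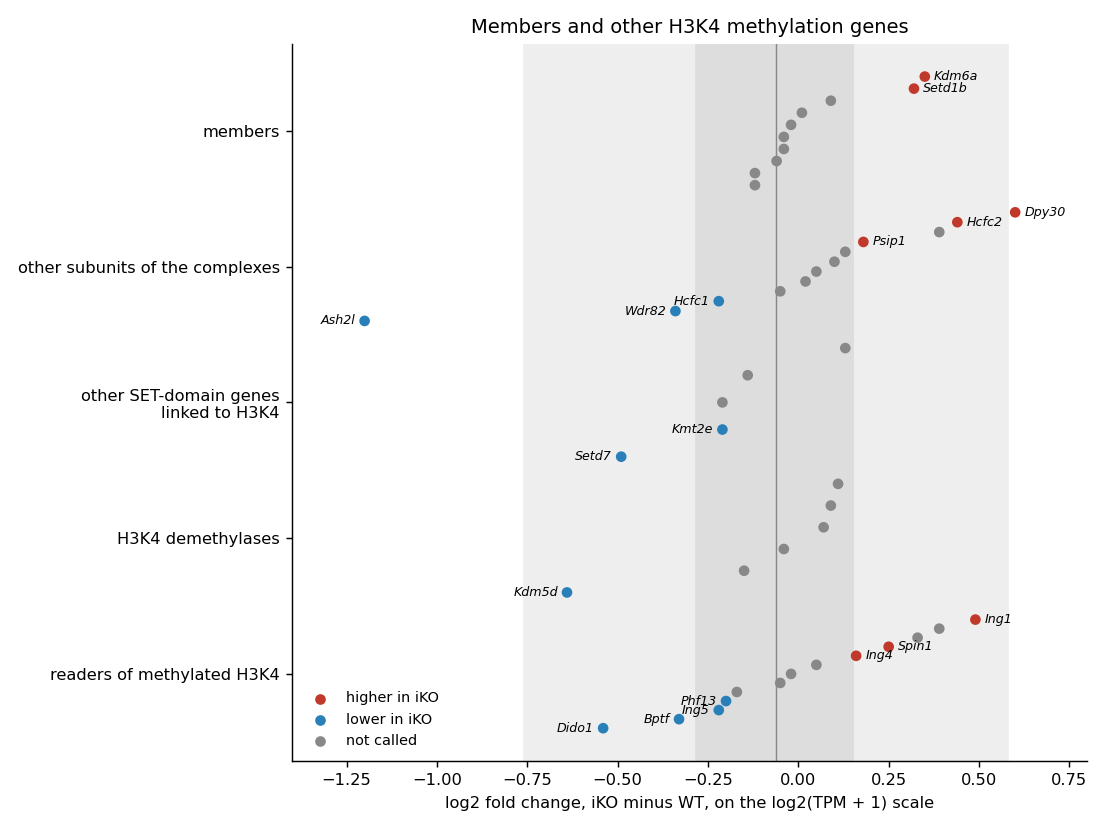
Differences in log2(TPM + 1), iKO minus WT, of the 10 members and of 4 lists of other H3K4 methylation genes, in red where called higher, blue where called lower and grey where not called. The dark and pale bands hold the range from -0.28 to 0.15 (25th to 75th percentile) and from -0.76 to 0.58 (5th to 95th percentile) of all tested genes, around their median of -0.06; among the members only Setd1b and Kdm6a lie above the dark band.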

How the data were processed

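The authors deposited TPM values of 55385 genes for 8 libraries. No aligner, quantifier or genome build could be taken from the labels or headers. Smart-Seq2, which amplifies full-length cDNA and does not mark strand, and paired-end sequencing are given per the labels' protocols. The authors also deposited a comparison of iKO and WT whose column names, per the file headers, match those of DESeq2. In it the authors give, per the file headers, the mean signal of each gene after their normalization, the log2 fold change of iKO over WT with its SE, a test score (not used here), and p-values before and after adjustment.

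Groups follow the sample titles. Each gene with 1 TPM or more in at least 4 libraries (16413 genes) was fitted with limma 3.58.1 (R 4.3.3) to log2(TPM + 1), using a mean-variance trend and robust moderation, and was called at a Benjamini-Hochberg adjusted p under 0.05. Fold changes, iKO minus WT, understate low genes because 1 TPM is added. Ratios, and listed genes below the filter, were compared by exact permutation. The score of sex-linked transcripts is the average log2(TPM + 1) over Uty, Kdm5d, Eif2s3y and Ddx3y less the Xist value. Lengths, exon overlaps and copies (blastn 2.17.0, at least 95% identity over at least 50% of the shorter transcript) were taken from GENCODE M21, covering 99.6% of gene IDs, whatever annotation the authors used. Plots were made in matplotlib 3.10.9.

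By rule, the text names all 10 members, Ash2l, sex-linked transcripts, genes of the subunit, demethylase, SET-domain and KDM6 lists, and up to 4 genes of smallest p from each other list. Pax6 and Sox2 were named after their values were seen, as were the Hox genes listed at 0. Members and lists were chosen with earlier results of these data known. Alternatives were a replicate block, leaving out each library, other pseudocounts, filters and scalings, the sex-linked score, and the authors' comparison.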

Additional observations from a re-analysis of the deposited data

Results flagged for a closer look

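Of 80 groups of 4 libraries examined, 7 had 1 library that stood apart from the other 3 by Dixon's criterion, which by chance flags about 1 group in 20. Among the members, Men1 was at 62.2 TPM in WT replicate 4, below the other WT libraries at 76.6 to 79.2 TPM. The Kmt2a:Kmt2b ratio was 1.77 in iKO replicate 4, above 1.41 to 1.44 in the other iKO libraries. Wdr5 was highest at 40.3 TPM in iKO replicate 3, as was Pagr1a at 43.2 TPM. Dpy30 was lowest among WT libraries at 81.9 TPM in replicate 2. Smyd1 was highest at 1.85 TPM in iKO replicate 1, and Kdm6b was highest among WT libraries at 15.0 TPM in replicate 2. The causes of these values were not tested.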

How the results depend on the processing

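The calls of Kdm6a and Setd1b were kept under every alternative that tested them except the score of sex-linked transcripts, under which 423 genes and 0 members were called. The count of members called was 1 of 8 with a mean TPM of at least 5, since Setd1b and Kmt2d were then not tested, 4 in the authors' deposited table, and 2 to 3 without 1 library each. Across all genes, 7942 to 8216 were called without 1 library. Of the members that were not called, 7 changed sign. With trimmed mean factors Kmt2b was at 0.02, Kmt2d at 0.03, Setd1a at 0.01 and Cxxc1 at 0.00234. With quantile normalization Kmt2b was at 0.08, Kmt2d at 0.11, Setd1a at 0.09 and Cxxc1 at 0.01. With the length and GC trend removed Kmt2a was at 0.01, Kmt2b at 0.03, Kmt2d at 0.08 and Setd1a at 0.05. With the score of sex-linked transcripts Kmt2a was at 0.01, Kmt2d at 0.30 and Cxxc1 at 0.29. Under this score Kmt2b at -0.62 and Men1 at -0.49 kept their sign without a call. Both lay below -0.33, the lowest bound of the 95% intervals in the fit without a covariate. The authors' deposited table had Kmt2b at 0.16, Kmt2d at 0.23, Setd1a at 0.12, Men1 at 0.05 and Cxxc1 at 0.02. Without 1 library each, Kmt2b ran from -0.09 to 0.04, Kmt2c from -0.02 to 0.03, Kmt2d from -0.10 to 0.08, Cxxc1 from -0.09 to -0.01, Setd1a from -0.08 to 0.04 and Men1 from -0.19 to -0.08. Without 1 library each, the log2 difference of Setd1a:Setd1b ran from -0.52 to -0.29, of Kdm6a:Uty from 1.76 to 2.13, of Kmt2a:Kmt2b from -0.16 to 0.01 and of Kmt2c:Kmt2d from -0.09 to 0.13. The cause of these shifts was not tested.

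Replicate numbers did not pair the libraries: deviations of same-numbered libraries correlated at -0.0445 to 0.000694. With the replicate number as a block, 8097 genes and 2 members were called. TPM keeps no depth, so counting error could not be given.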

Other observations

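Genes known as targets of KMT2A or menin, mostly from work on blood and leukaemia cells, were read from a list of 15. Of the 9 tested, 3 rose and 6 did not pass, and their median fold change on the log2 scale was 0.07. In all, 20.7% of all tested genes were called higher. Dlx2, a homeobox gene of interneuron and olfactory bulb progenitors that depends on KMT2A in postnatal neural stem cells of the mouse, rose to 495 ± 5.1 TPM in iKO, against 350.4 ± 7.22 TPM in WT (SD, n = 4, limma log2 fold change 0.50, adjusted p = 1.14e-07). Cdk6, a cell cycle kinase gene, rose to 74.1 ± 4.22 TPM in iKO, against 53.0 ± 6.78 TPM in WT, and Cdkn1b, the gene of the cell cycle inhibitor p27, to 44.4 ± 1.92 TPM in iKO, against 39.5 ± 1.75 TPM in WT. Dlx2 kept its call with the score of sex-linked transcripts as covariate (limma log2 fold change 0.52, adjusted p = 0.0158). Cdk6 (adjusted p = 0.246) and Cdkn1b (adjusted p = 0.371) lost theirs, as Kdm6a and Setd1b did. Since the score did not overlap between the groups, a call kept or lost under it does not tell sex composition from genotype. Pbx3, a homeobox cofactor gene, stood at 13.7 and 17 TPM in iKO and WT and did not pass. The Hox genes Hoxa5, Hoxa7, Hoxa9 and Hoxc8 were listed at 0 in all 8 libraries.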
